A study of Mus musculus with 3 samples.

Results

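Mitosis and chromosome segregation genes were followed in mouse embryonic stem (ES) cells that lose Oct3/4, the pluripotency factor encoded by Pou5f1. The list held 44 genes, and its members were all probe sets, the groups of short probes by which the array reads a transcript, that its annotation assigns to 1 of these genes and to no other. This gave 97 of the 45037 probe sets on the arrays, for 43 of the 18193 genes with a probe set of their own. Ccnb1, the gene of cyclin B1, had no probe set of its own in that annotation and was not analysed here. Probe sets with a mean signal under 55.9, the 40th percentile of all signals, were set aside as dim. This left 91 member probe sets, and every one of the 43 genes kept at least 1. The 6 dim ones belonged to Cenpa, Incenp, Kif23 and Nek2.

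The study asked how expression changes in the absence of Oct3/4, and used a conditional allele of Pou5f1 because ES cells that lack the gene cannot be kept in culture. An array of the conditional knockout was made from each of day 0, day 1 and day 2. How the knockout was induced, whether the line was 1 clone, and whether feeder cells were present are not given in the sources used here. All 3 groups carried the conditional allele, and no culture that kept Oct3/4 was profiled at the later days, so loss of Oct3/4 and time in culture cannot be told apart. Since each day has 1 array, values carry no replicate error, nothing was tested, and every difference describes these 3 arrays. The median signal over all probe sets was 83.5, 92.5 and 87.6 in the order of the days. Pou5f1 went from a signal of 2400.4 at day 0 to 40.8 and 15.5. Of 8 ES cell markers, 8 were at least 2-fold lower at day 2. Of 8 trophectoderm markers 6 were at least 2-fold higher at day 2. Eomes was below day 0 by then (381, 844 and 295), and Elf5 was below the threshold of 55.9. The summed signal of the 8 went from 10403 to 15563 and 52605. Most of this increase lay in the keratin genes Krt8 (2474, 3475 and 18358) and Krt18 (4026, 4938 and 24610). Of 11 fibroblast markers, the kind of cell used as feeders, 7 were below the threshold of 55.9, Col1a1 and Col3a1 among them, and the summed signal was 854, 723 and 702. Without Thy1 (400, 275 and 89.3), which makes up the decrease, the sum was 454, 448 and 613. The part of these shifts in cell identity in the values below was not tested.

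Mitosis is driven by Cdk1, a kinase that works when bound to cyclin A or B and that is switched on by Cdc25 phosphatases. Condensin then packs the chromosomes, kinetochores assembled on centromeres attach them to spindle microtubules, and the spindle checkpoint holds the cell until all are attached. Cdc20 then directs the anaphase-promoting complex (APC/C), a ubiquitin ligase, against securin and cyclin B, which frees separase to part the sister chromatids, and cytokinesis divides the cell. Many of these genes are transcribed in G2 and M phase through the cell cycle genes homology region (CHR), which the MuvB complex binds, and through CCAAT boxes, which the factor NF-Y binds. ES cells divide fast, with a short G1 phase, and a large share of them is in S, G2 or M phase at any time.

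The promoters of the listed genes are shown first because they share letters that the rule for membership did not use. RefSeq promoters of assembly GRCm38.p6, each running from 250 bases before the gene start to 50 after it, matched 36 of the 44 genes, 39 promoters in all since 3 genes had several. They were searched on both strands for the CHR hexamers TTTGAA and TTCGAA and for CCAAT. The stretches below hold the 120 bases just before the start, written 5′ to 3′ on the strand of the gene, with matches in capitals. ATTGG and TTCAAA are CCAAT and TTTGAA on the opposite strand.

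The first 4 show CHR hexamers close to the start with CCAAT boxes around or before them.
Cdk1, chr10:69352913-69353032, minus strand: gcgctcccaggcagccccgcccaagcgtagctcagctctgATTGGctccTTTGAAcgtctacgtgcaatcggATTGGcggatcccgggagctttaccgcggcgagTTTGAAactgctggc
Cdc20, chr4:118437344-118437463, minus strand: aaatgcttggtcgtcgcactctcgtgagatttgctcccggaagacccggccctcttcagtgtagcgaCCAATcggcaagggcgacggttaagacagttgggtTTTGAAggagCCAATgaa
Espl1, chr15:102296173-102296292, plus strand: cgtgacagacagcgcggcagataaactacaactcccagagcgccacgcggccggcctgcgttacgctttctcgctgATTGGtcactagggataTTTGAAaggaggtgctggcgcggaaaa
Kif11, chr19:37376262-37376381, plus strand: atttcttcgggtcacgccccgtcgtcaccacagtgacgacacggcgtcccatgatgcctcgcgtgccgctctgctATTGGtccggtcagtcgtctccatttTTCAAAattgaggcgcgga

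Ccnb2 is shown for its row of CCAAT boxes, and Bub1 because it had the lowest day 2 difference of the members. With the gene start counted as base 1, their nearest CHR hexamers begin at bases 5 and 15 and so lie outside these stretches.
Ccnb2, chr9:70421555-70421674, minus strand: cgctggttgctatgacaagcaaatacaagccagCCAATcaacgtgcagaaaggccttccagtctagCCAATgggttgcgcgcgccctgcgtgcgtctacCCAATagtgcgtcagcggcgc
Bub1, chr2:127831860-127831979, minus strand: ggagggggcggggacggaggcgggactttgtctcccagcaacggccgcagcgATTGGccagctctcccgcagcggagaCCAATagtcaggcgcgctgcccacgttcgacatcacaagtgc

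A CHR hexamer was found in 30 of the 39 promoters (76.9%), where 19.2% of all 32851 promoters in the table hold 1. CCAAT was found in 31 (79.5%), against 37.4% of all promoters, and both together in 27 (69.2%), against 7.52%. Counted by gene, since the promoters of Bub3, Ect2 and Prc1 overlap, 27 of the 36 held a CHR hexamer, 28 a CCAAT and 24 both. The promoters held 34 distinct CHR hexamers, of which 26 began within 50 bases of a start, and 1 overlap of a CHR with a CCAAT match. CCAAT boxes on the same strand whose first bases lie 31 to 33 bases apart, as in Ccnb2 and Cdk1, were in 6 of the 39 (15.4%), against 0.794% of all. This distance was chosen after the sequences had been seen. The trait is shared with other genes of mitosis, of whose 71 promoters 38 held a CHR hexamer (53.5%), 46 a CCAAT (64.8%) and 27 both (38.0%). CHR hexamers were in 10 of 48 promoters of DNA replication genes (20.8%) and TTTNNCGC, letters found in many E2F sites, was in 16 of them (33.3%), against 6 of the 39 (15.4%) and 5.17% of all promoters. A match of letters is a description and not a bound site. No CHR hexamer and no CCAAT was found in Birc5, Mad2l1, Ncaph, Nuf2 and Pttg1. Their log2 differences for day 2 minus day 0 were of either sign, at −0.23, −0.10, −0.47, 0.26 and 0.58 in that order. The 27 measured genes with a CHR hexamer had a median log2 difference of −0.06 for day 2 minus day 0, and the 8 without 1 had a median of 0.05. The ranges overlapped widely, from −0.71 to 0.48 with a CHR hexamer and from −0.47 to 0.58 without.

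**Figure D1:**
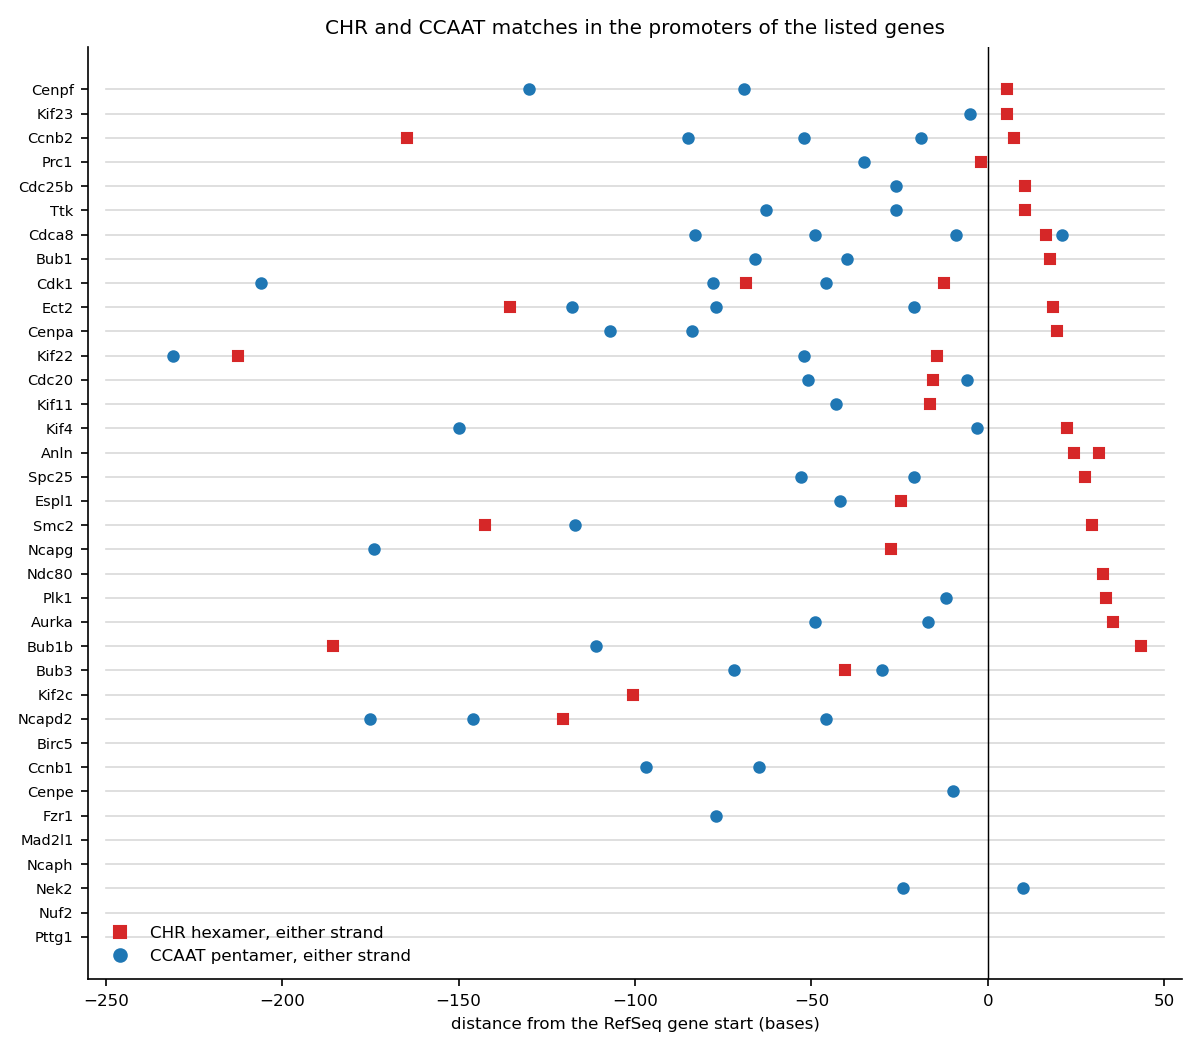
Positions of CHR hexamers (red squares) and CCAAT pentamers (blue circles), on either strand, in the promoters of 36 listed genes, against the distance from the RefSeq gene start in bases (1 promoter per gene, each row a gene). Red squares crowd around the start, where 26 of the 34 distinct CHR hexamers of all 39 promoters lie within 50 bases.

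The members as a whole moved little while the cells lost Oct3/4. Differences are given as log2(signal + 55.9), which understates the change of genes with low signals, and the brightest kept probe set of a gene stands for it. For day 2 minus day 0, 0 of the 43 genes were at least 2-fold higher or lower, where 10.9% of all 12717 genes measured passed that size. At a size of 1.5-fold 1 of the 43 passed, Bub1, which was lower, against 26.4% of all genes in either direction and 11.8% on the lower side. The median of the members was −0.05, with quartiles of −0.16 and 0.27 and a range from −0.71 (Bub1) to 0.58 (Pttg1). The median of all genes was 0.05, with quartiles of −0.27 and 0.37. In bulk RNA, fewer cells in G2 or M phase and less RNA per such cell cannot be told apart.

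**Figure D2:**
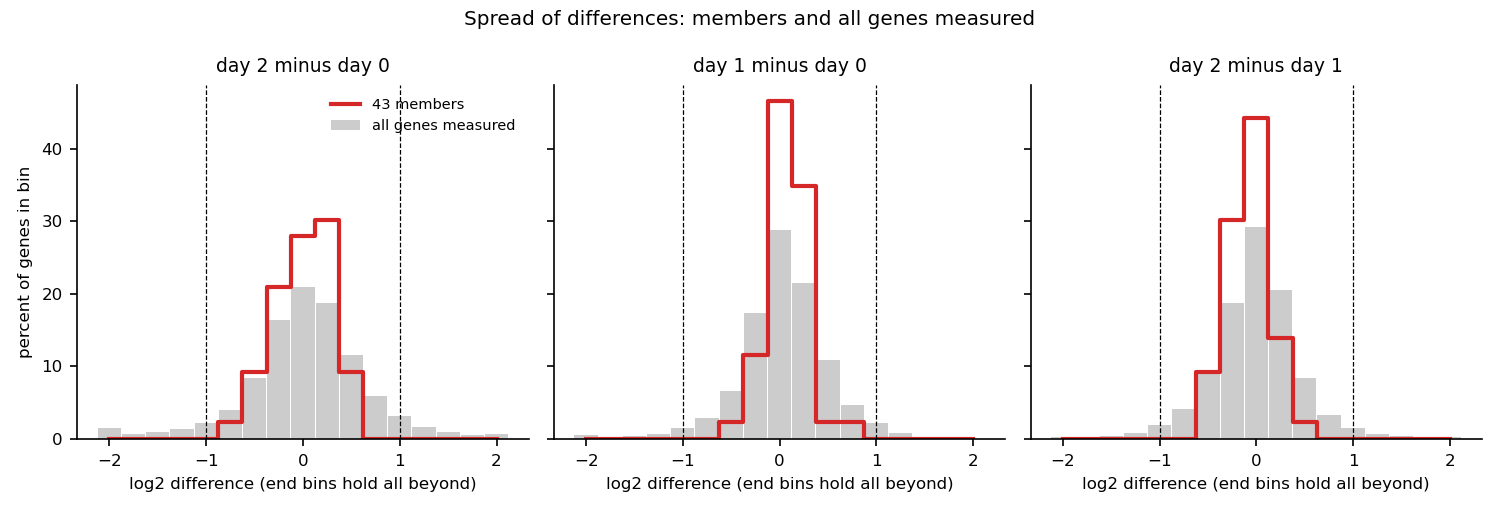
Percent of genes in bins of log2 difference for the 43 members (red line) and for all 12717 genes measured (grey bars), for each pair of days, with dashed lines at 2-fold. The members lie between the dashed lines in all 3 panels, while 10.9%, 4.99% and 4.74% of all genes lie beyond them.

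The single steps gave the same picture. Between day 0 and day 1, 0 members passed 2-fold, against 4.99% of all genes, and 1 passed 1.5-fold, Cdc25c, against 16.9%. The median was 0.08, with 30 members above 0 and 13 below. Between day 1 and day 2, 0 members passed 2-fold and 0 passed 1.5-fold, against 4.74% and 15.9% of all genes, and the median was −0.04. These comparisons share arrays and are not independent of each other. The array of day 1 held the highest of the 3 signals for 16 members, while 14 members were higher at each later day, 10 were lower at each later day and 3 were lowest at day 1. Over all genes the same orders held 28.4%, 26.9%, 21.4% and 23.4%. The members are bright, 39 of 43 with a mean signal of at least 1000. Among the 9602 genes with a mean signal of at least 151, which include all 43, 11.4% passed 2-fold for day 2 minus day 0. That cut lies below the dimmest member (300), so genes as bright as the members were not compared on their own.

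A scaling to equal medians of ribosomal protein genes moved the median of all genes by −0.16 and that of the members to −0.23, and put 5 members instead of 1 at least 1.5-fold lower at day 2, namely Bub1, Kif23, Ttk, Ncaph and Ect2. Over all genes, 16.9% were then at least 1.5-fold lower and 9.97% higher, in place of 11.8% and 14.6%. With the mean over the probe sets of a gene, Kif23 (−0.75) and not Bub1 was the 1 member past 1.5-fold. The count past 2-fold was 0 under these and the other settings tried.

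**Figure D3:**
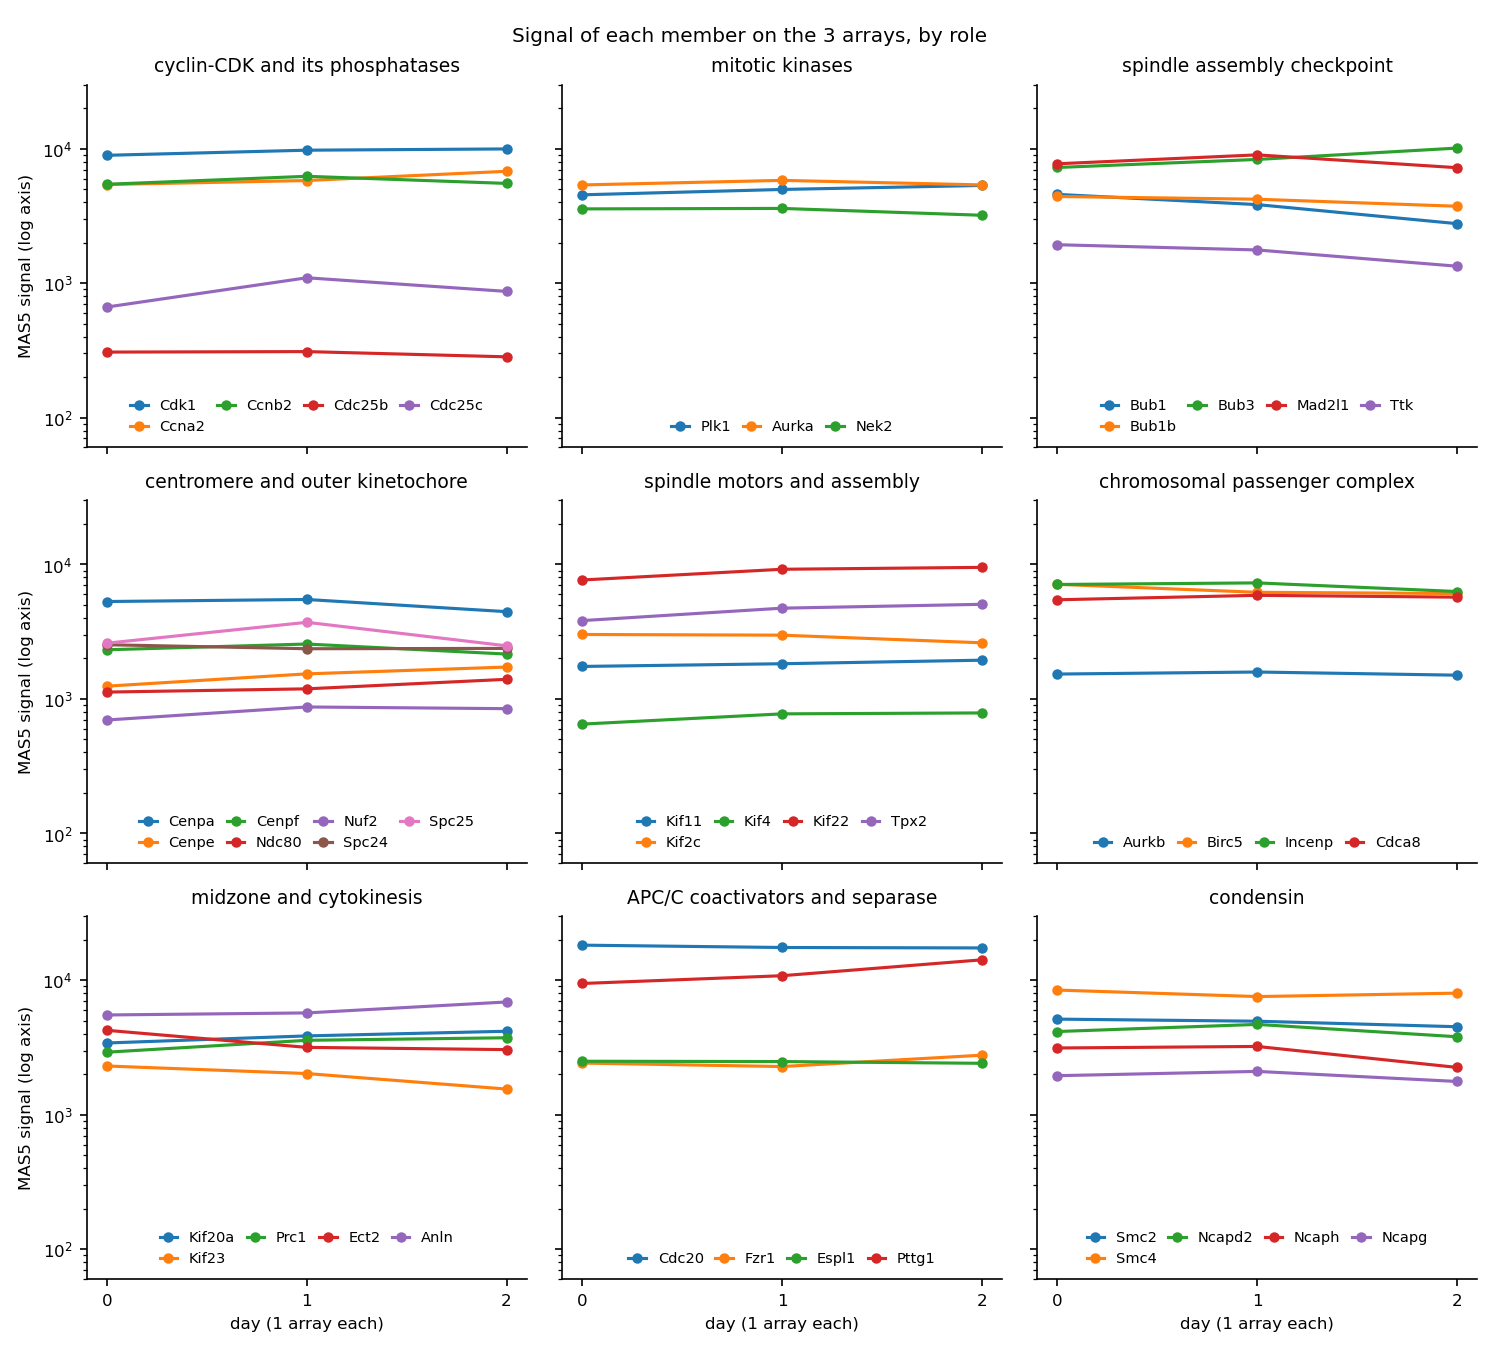
MAS5 signal (log axis) of the representative probe set of each of the 43 measured members at day 0, day 1 and day 2, 1 array each, in a panel for each role. Most lines run nearly flat. Bub1 (4572 to 2771) has the largest difference between day 0 and day 2. The steepest single steps are those of Cdc25c up to its high point of 1097 at day 1, and of Spc25 down from 3715 at day 1.

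The kinase at the centre of mitotic entry and its cyclins were steady or slightly higher in the main setting. With equal ribosomal protein medians the day 2 minus day 0 differences were −0.02 for Cdk1, 0.14 for Ccna2 and −0.16 for Ccnb2. Cdk1, the mitotic kinase, had signals of 8927, 9743 and 9955, a difference of 0.16 for day 2 minus day 0. Ccna2, the cyclin of S phase and early mitosis, had 5413, 5796 and 6789 (0.32), but its other probe set gave −0.13. Ccnb2, cyclin B2, had 5435, 6231 and 5517 (0.02). The day 1 array was the highest for Ccnb2 and the day 2 array for Cdk1 and Ccna2. The phosphatase genes that activate Cdk1 differed from each other. Cdc25c, which acts at entry into mitosis, had 665 at day 0, 1097 at day 1 and 869 at day 2, and was 1.60-fold higher at day 1 than at day 0 (0.68). Its other probe set went the same way, with 385, 792 and 493 and a difference of 0.95 at day 1. Both probe sets put Cdc25c highest at day 1 and leave it above day 0 at day 2, at 0.36 and 0.32. Cdc25b, the related phosphatase, had 307, 309.9 and 283 (−0.10).

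Plk1, Aurka and Nek2, kinases that act beside Cdk1, were within 1.17-fold of day 0 at day 2 in their representative probe sets. Plk1, the polo kinase needed for centrosome maturation and mitotic progress, had signals of 4538, 4975 and 5327 (0.23 for day 2 minus day 0). Aurka, the Aurora kinase of spindle poles, had 5374, 5812 and 5377, equal at day 0 and day 2 to within rounding (0.00). Nek2, a centrosomal kinase, had 3567, 3595 and 3198 (−0.15), while its other kept probe set gave 0.26.

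Spindle checkpoint genes held the lowest member of the list, and they did not move together. Bub1, a checkpoint kinase at the kinetochore, had 4572 at day 0, 3838 at day 1 and 2771 at day 2, lower at each step and 1.64-fold lower over both (−0.71). Its other kept probe set had low signals of 124, 57.2 and 96.1 and gave −0.24. Ttk, the kinase Mps1 that starts checkpoint signalling, had 1931, 1766 and 1337 (−0.51), and its weaker second probe set gave −0.12. Bub1 and Ttk were thus each lower at both later days in the representative probe set. Bub1b, the gene of BubR1, a part of the complex that blocks Cdc20, had 4410.1, 4209 and 3732 (−0.24), and its other bright probe set gave −0.15. Mad2l1, the gene of Mad2 in the same complex, had 7722, 8992 and 7223 (−0.10), highest at day 1. Bub3, the adaptor that brings Bub1 and BubR1 to the kinetochore, went the other way, with 7248, 8317 and 10096 (0.48). Its 5 kept probe sets did not agree, running from −0.25 to 0.48 for day 2 minus day 0, and the next brightest gave 0.07 (965, 881 and 1018). The value of Bub3 is therefore uncertain.

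Centromere and kinetochore genes differed little from day 0 at day 2, and subunits of the same complex had differences of either sign. Cenpa, the histone H3 variant that marks the centromere, had 5303, 5491 and 4458 (−0.25 for day 2 minus day 0). In the 4-protein NDC80 complex, which holds the microtubule, Ndc80 (1125, 1189 and 1399.6; 0.30) and Nuf2 (698, 872 and 847; 0.26) bind the microtubule. Spc24 (2530.3, 2363 and 2376; −0.09) and Spc25 (−0.06) face the centromere. The first 2 were above day 0 at day 2 and the others just below it. All 4 differed by less than the spread of 0.34 (pooled SD) between probe sets of a gene over all genes. Over the members with several probe sets that spread was 0.26, and Ndc80 and Nuf2 did not lie below it. Spc25 stood out at day 1, with signals of 2599, 3715 and 2483, 1.42-fold above day 0 and then 1.48-fold below day 1. Its weaker second probe set also had its highest value at day 1 (113, 152 and 118). Cenpf, a large kinetochore protein of G2 and M phase, had 2321, 2561 and 2157 (−0.10), and all 3 of its probe sets lay below 0. Cenpe, the kinetochore motor, had 1245, 1537 and 1727 (0.45), but its other probe set had 581, 529.5 and 358 (−0.62). The 2 probe sets of Cenpe thus differ by more than 2-fold in their change, and no direction can be given for this gene.

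Most genes of the spindle's motors and assembly factors were slightly higher in their representative probe set. Tpx2, which activates Aurora A and nucleates spindle microtubules, had signals of 3824, 4732 and 5055 (0.40 for day 2 minus day 0). Of its 4 kept probe sets 3 were above 0 and the second brightest gave −0.28. Kif22, a motor that pushes chromosome arms away from the poles, had 7665, 9209.8 and 9515 (0.31), and its other probe sets gave −0.13 and −0.19. Kif4, a chromosome-bound motor with a single probe set, had 650.1, 775 and 787 (0.26). Kif11, the motor that pushes the spindle poles apart, had 1745, 1828 and 1942 (0.15), with its other probe sets at −0.04 and −0.16. Only Kif2c, a kinesin that takes microtubules apart, was below day 0, at 3016, 2981 and 2616 (−0.20). Its 4 kept probe sets ran from −0.20 to 0.05. For Kif22, Kif11, Kif2c and Tpx2 the probe sets straddle 0, so the sign of these small differences rests on which one is read.

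The chromosomal passenger complex corrects faulty attachments and later organises the spindle midzone. Among the groups by role, which differ in size, it had the narrowest range for day 2 minus day 0. Its kinase Aurkb had signals of 1532, 1586 and 1503, a difference of −0.03 for day 2 minus day 0. Birc5, the gene of survivin, had 7117, 6209 and 6079 (−0.23). Incenp, the scaffold, had 7099, 7294 and 6293 (−0.17), and all 4 of its kept probe sets lay below 0. Cdca8, the gene of borealin, had 5463, 5895 and 5714 (0.06), with all 3 probe sets between 0.06 and 0.16. The 4 genes thus spanned −0.23 to 0.06. Each differed from day 0 by less than the spread (pooled SD) between probe sets of the same gene, 0.34 over all genes and 0.26 over members.

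Genes of the midzone and of cytokinesis divided into higher and lower ones. Kif23, the motor of the centralspindlin complex that marks the division plane, had 2304 at day 0, 2025 at day 1 and 1553 at day 2 (−0.55). Its other kept probe set gave a larger difference, −0.95, with 732, 577 and 353. Both probe sets of Kif23 were lower at each later day. Ect2, the exchange factor that centralspindlin brings in to activate RhoA, had 4242, 3169 and 3051 (−0.47), most of it by day 1 (−0.41). Racgap1, the partner of Kif23 in centralspindlin and not among the listed genes, gave 0.18. Prc1, which bundles midzone microtubules, had 2919.7, 3577 and 3736 (0.35), and its second probe set gave 0.41. Anln, the gene of anillin in the contractile ring, had 5519.9, 5716 and 6894 (0.32), with 0.28 in the other probe set. Kif20a, a midzone motor, had 3417, 3857 and 4177 (0.29). The probe sets of Kif23, Prc1 and Anln agreed in sign for day 2 minus day 0.

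Among the genes that end mitosis, securin was the highest member of the whole list. Pttg1, the gene of securin, which holds separase inactive until anaphase, had 9461 at day 0, 10806 at day 1 and 14184 at day 2 (0.58). Its other probe sets gave 0.29 (2742, 2387 and 3367) and 0.75 (177, 214 and 336). All 3 were highest at day 2. Espl1, separase itself, had 2499, 2486 and 2413 (−0.05). Cdc20, the coactivator that opens anaphase, had 18238, 17522 and 17387 (−0.07), and its other probe sets gave 0.16 and −0.36. Fzr1, the gene of Cdh1, the coactivator that takes over at mitotic exit, had 2422, 2283 and 2772 (0.19).

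The 5 condensin subunits on the list were below day 0 at day 2 in their representative probe sets. Of the condensin II subunits, which were not on it, Ncapd3 (−0.64) and Ncapg2 (−0.43) were below and Ncaph2 (0.11) was above. Ncaph, the kleisin that closes the condensin I ring, had 3136, 3220.2 and 2249.7 (−0.47), but its other probe set gave only −0.09. Smc2, an ATPase shared by both condensins, had 5140.0, 4960.1 and 4513 (−0.19). All 5 probe sets of Smc2 were below 0, from −0.70 to −0.19. Ncapg (1952, 2101 and 1768; −0.14) and Ncapd2 (4158, 4696 and 3803; −0.13) are the HEAT-repeat subunits of condensin I, and both probe sets of each were below 0. Smc4, the partner ATPase of Smc2, had 8455, 7564 and 8019.9 (−0.08). Its other probe sets, at 4472, 5133 and 6581 and at 1509, 1749 and 2364, gave 0.55 and 0.63. Smc2 and Smc4 act as a dimer, and the direction of Smc4 depends on which of its probe sets is read.

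**Figure D4:**
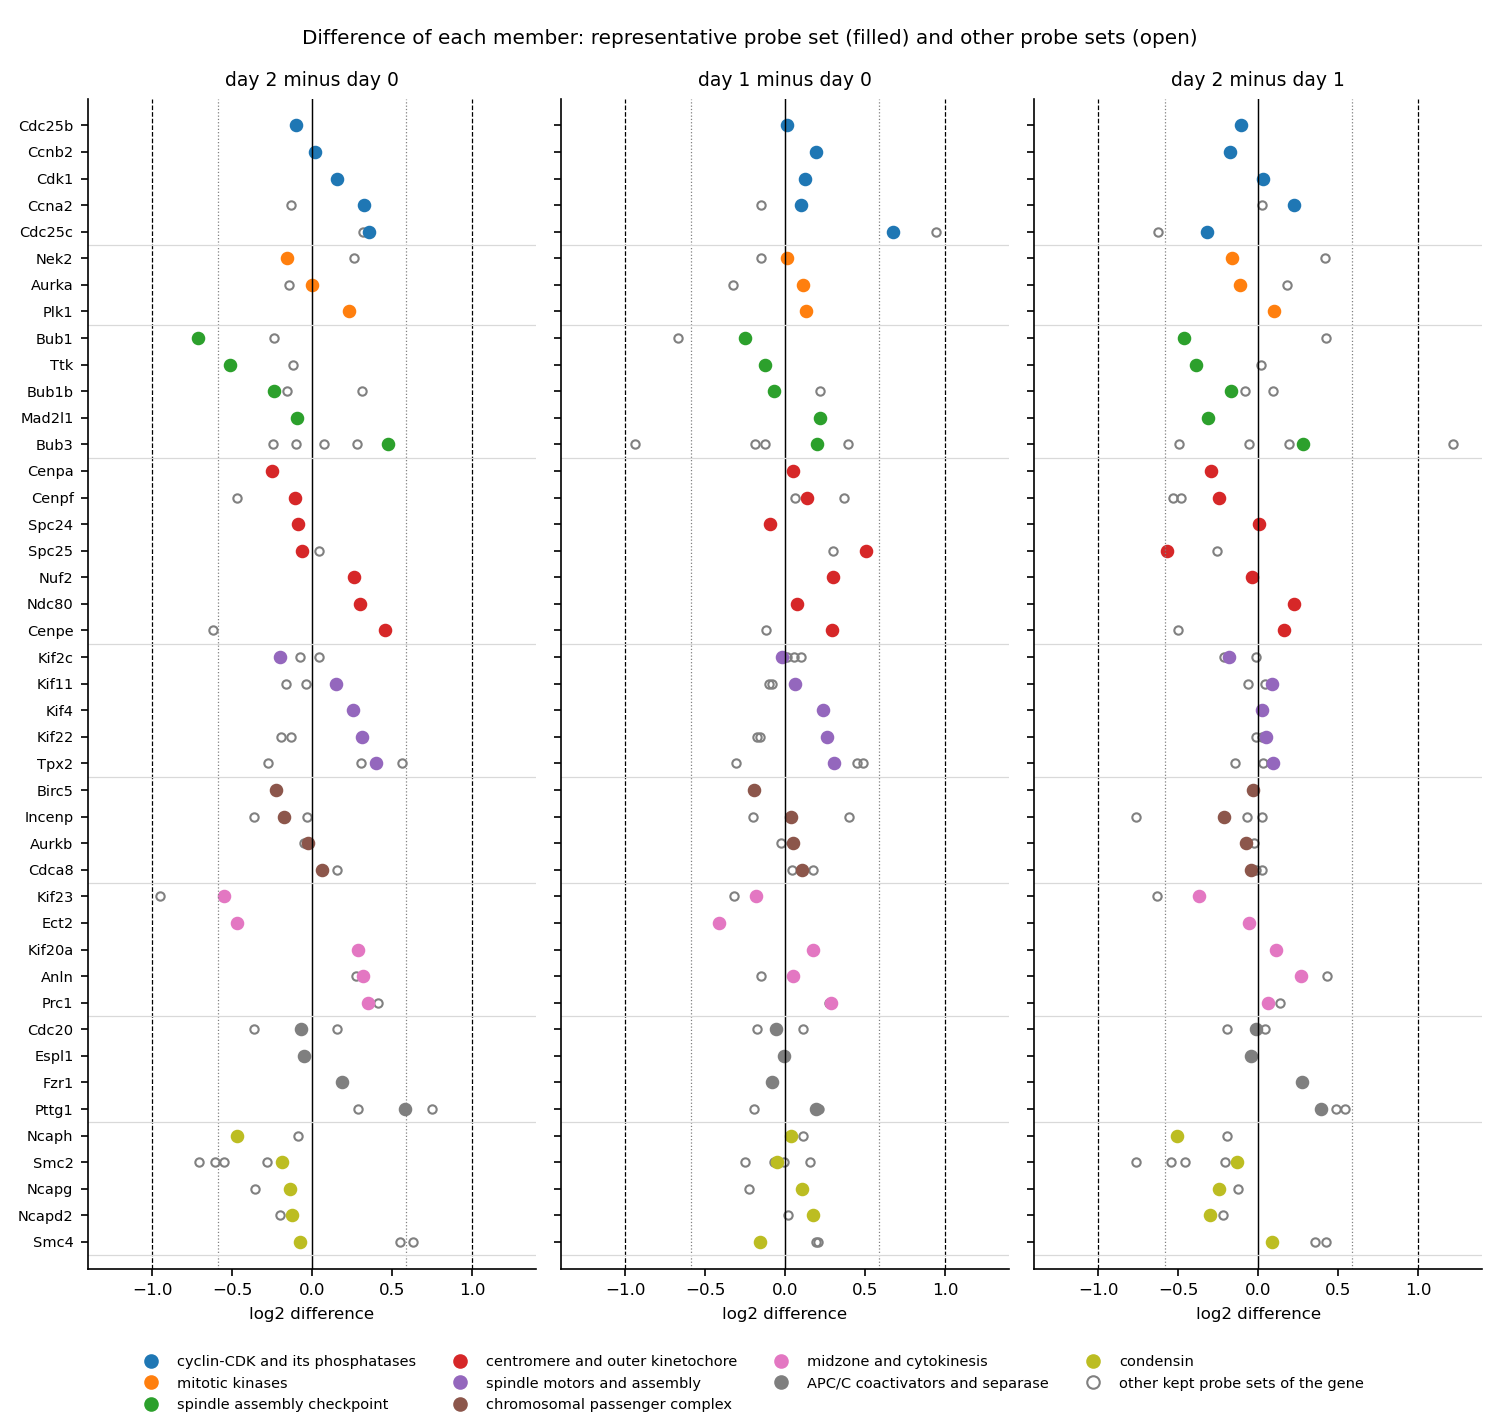
Log2 difference of each of the 43 members for the 3 pairs of days: filled points are representative probe sets, coloured by role, and open points are the other kept probe sets of the gene; dotted and dashed lines mark 1.5-fold and 2-fold. Open and filled points of Pttg1, Kif23 and Smc2 lie on the same side of 0 at day 2, while those of Cenpe and Smc4 lie on both sides.

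The only repeat measurement on these arrays is another probe set of the same gene. It covers probe error and not the variation between cultures or hybridisations. For day 2 minus day 0 the pooled SD between probe sets was 0.34 over all 5906 genes with several kept ones and 0.26 over the 28 members with several. Of the 43 members, 11 lay more than 0.34 from 0, 6 above and 5 below, and 1, Bub1, lay more than 2 such SDs away. That is 25.6% of the members, where 47.3% of all genes lay more than 0.34 from 0. In 15 of the 28 members all probe sets had the same sign (53.6%), against 62.9% of all genes with several. For day 1 minus day 0 the count was 10 of 28 (35.7%), against 55.9% of all such genes. Counted by probe set, 0 of 91 passed 2-fold and 7 passed 1.5-fold for day 2 minus day 0, against 9.87% and 25.5% of all 22986 named and kept probe sets. The 5 lower ones came from Bub1, Cenpe, Kif23 and Smc2, and the 2 higher ones from Pttg1 and Smc4. For day 1 minus day 0 the count past 2-fold was 0 of 91, against 4.45%, and for day 2 minus day 1 it was 1, against 4.31%. That probe set was a weak one of Bub3, at 12.6 on day 1 and 104 on day 2.

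Other genes of mitosis, listed for their known function, spread further than the members. Of 70 measured genes 0 were at least 2-fold higher at day 2 and 1, Cep55, was lower (1.43%, against 10.9% of all genes), and the median was −0.08. At 1.5-fold 9 were lower (12.9%, against 11.8% of all genes) and 2 were higher, where 1 of the 43 members was lower. Cep55, which recruits the abscission machinery to the midbody at the end of cytokinesis, had 3649 at day 0, 1554 at day 1 and 963 at day 2 (−1.86). Its second probe set, at 790.4, 257 and 221, gave −1.61. Both probe sets of Cep55 were at least 2-fold lower by day 1, at −1.20 and −1.43. Next lowest was Knl1, a kinetochore scaffold that binds Bub1 (936, 779 and 487; −0.87), although its other probe set gave 0.27. The highest were Zwint (3008, 4091 and 5869; 0.95), which links Knl1 to the checkpoint, and Mki67 (3289.8, 4242 and 5009.7; 0.60), the gene of the proliferation marker Ki-67. All 6 probe sets of Zwint were above 0, from 0.13 to 0.95.

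The ubiquitin ligase that the listed coactivators serve and the cohesin ring that separase cuts were also near level. Of 30 measured APC/C and cohesin genes 0 were at least 2-fold higher at day 2 and 1, Esco2, was lower. This is 3.33%, against 10.9% of all genes, and the median was 0.03. Esco2, the acetyltransferase that locks cohesin on replicated DNA, had 1183, 614 and 469.8 (−1.24), while its weaker second probe set gave −0.27. Cdc16 (0.59) and Stag1 (0.45) were the highest, and Cdc26 (−0.33) was the next lowest after Esco2.

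The regulators of these genes spread more widely than the members did. Of 23 measured genes of the MuvB, E2F, NF-Y and FOXM1 systems 2 were at least 2-fold lower and 1 at least 2-fold higher at day 2 (13.0%), near the 10.9% of all genes. Mybl2, the gene of B-Myb, which joins MuvB to activate genes of G2 and M phase, had 8633 at day 0, 5282 at day 1 and 3550.4 at day 2 (−1.27). Its other probe set gave −1.85. Both probe sets of Mybl2 were lower at each step, by −0.70 and −0.81 at day 1. E2f2, an activating E2F, had 232, 176 and 76.4 (−1.12), near the threshold of 55.9 by day 2. E2f6, a repressing E2F, had 906, 1327 and 1977 (1.08), and E2f7 (541, 584 and 991; 0.81) was next. Foxm1, the forkhead factor of mitotic genes, was at 0.37 with signals of 408, 359 and 545. Nfyb, an NF-Y subunit, was at −0.73 and the other subunits Nfya and Nfyc at −0.12 and 0.26. Lin54, the MuvB subunit that reads the CHR, was at −0.07.

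DNA replication genes, the class nearest to the members in the cell cycle, lay lower. Of 47 measured genes 0 passed 2-fold at day 2, against 10.9% of all genes. But 11 (23.4%) were at least 1.5-fold lower at day 2 and 0 higher, and the median was −0.25 with 39 below 0. Over all genes 11.8% were that much lower, and with equal ribosomal protein medians the counts were 19 of 47 and 16.9%. The lowest were Pold2, a subunit of DNA polymerase delta (4186, 3698 and 2239; −0.89), and Pola1, the catalytic subunit of polymerase alpha (1362, 800.1 and 725; −0.86). Cdc7 (0.24) and Orc3 (0.15) were highest. Against these, 23 of the 43 mitosis members were below 0 and 20 above. The difference between the lists was not tested, since each rests on the same 3 arrays.

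**Figure D5:**
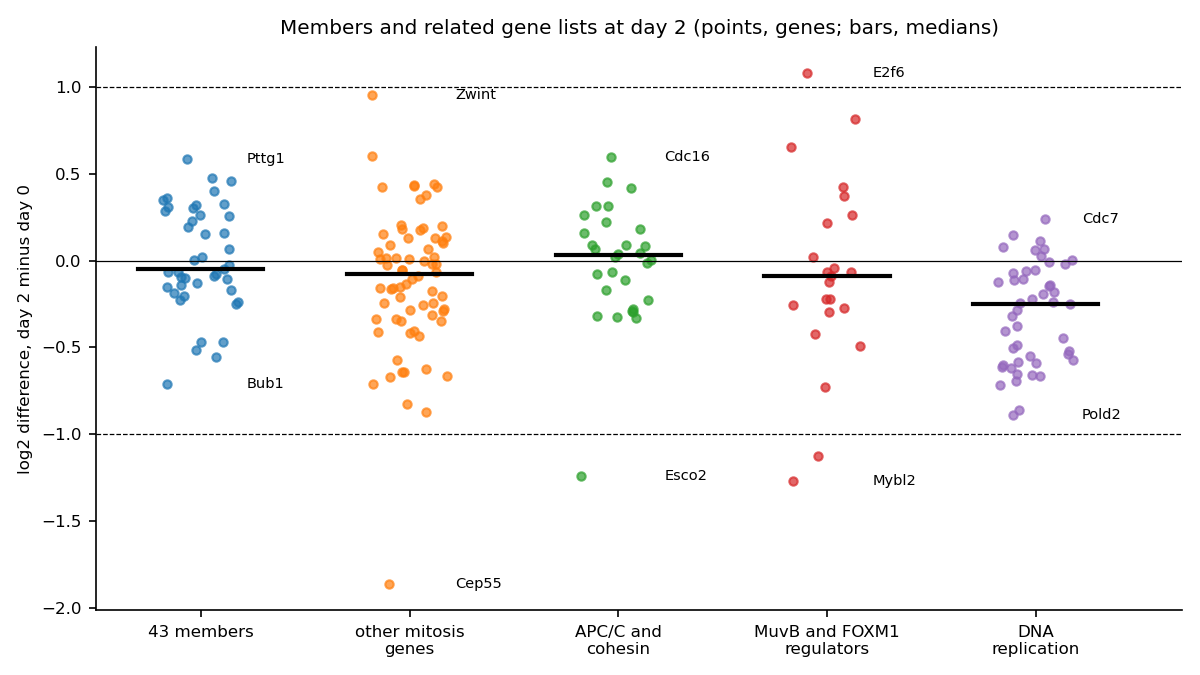
Log2 difference for day 2 minus day 0 of each gene (points) and the median (black bars) in the 43 members and 4 related lists, with dashed lines at 2-fold and the lowest and highest gene of each list named. The members span −0.71 to 0.58, whereas Cep55, Esco2, Mybl2, E2f2 and E2f6 lie beyond the dashed lines in the other lists, and the replication median sits lowest at −0.25.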

How the data were processed

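Each of the 3 deposited columns holds linear probe set intensities, for which the submitters' processing notes name MAS5 without a version. Their 2% trimmed mean was 498 in every column, so scaling to it left the values almost as deposited. The 64 control probe sets with a value at day 2 only were left out. The differences of log2(signal + 55.9) were computed here from the deposited intensities with Python 3.11.15, numpy 2.4.6 and pandas 2.3.3. The computation was tested on simulated data with planted changes larger than 2-fold. That test does not bear on the smaller differences described here. Gene names came from GEO's annotation of the platform, in which 34958 probe sets name 1 gene and 932 name several; the latter were not used. The number of arrays limits the precision.

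The members and the related lists were chosen with earlier results of these data known. Named were, in each role group, the highest and lowest member at day 2, every member past 1.5-fold, the 5 of highest mean signal, those whose probe sets differed by more than 1 in log2, and in the related lists the 2 highest, the 2 lowest and those past 2-fold. Racgap1, Foxm1, the NF-Y genes and Lin54 were added after their values were seen. The condensin II genes Ncapd3, Ncapg2 and Ncaph2 were also named outside this rule. The other members are given for completeness. Alternatives changed the constant, the scaling, the filter and the choice of probe set.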

Additional observations from a re-analysis of the deposited data

How the results depend on the processing

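Counts past 2-fold were 0 for the members in all 3 comparisons under all 8 alternatives: a constant of 112 or of 18.3, equal ribosomal protein medians, quantile normalisation, no filter, a filter at the 60th percentile, the mean over probe sets, and leaving out probe sets whose names carry the suffix x, s or a, which mark probes shared by several transcripts (33 members). With equal ribosomal protein medians 5 members were at least 1.5-fold lower for day 2 minus day 0, and for day 1 minus day 0 1 was lower and 0 were higher. Without the suffixed probe sets 1 (Pttg1) was at least 1.5-fold higher for day 2 minus day 0 and 0 for day 1 minus day 0, since both probe sets of Cdc25c carry a suffix. The other counts of members stayed within 1.5 times. With equal ribosomal protein medians the replication genes at least 1.5-fold lower went from 11 to 19 and the MuvB and FOXM1 regulators from 3 to 5. For the related lists 12 values were followed at day 2 minus day 0, the medians and the counts at least 2-fold lower or higher. Of these, 3 moved with equal ribosomal protein medians, 1 with the constant of 112 and 1 with the mean over probe sets. All were counts, so the 2-fold counts given above for these lists hold for the main setting only. The median ranged from −0.23 to 0.02 for day 2 minus day 0, −0.09 to 0.09 for day 1 minus day 0 and −0.06 to 0.02 for day 2 minus day 1, so its sign is not settled. The filters could not move a single member, since its brightest probe set passed both. Other constants and scalings moved 0 of 516 values by more than the pooled SD between probe sets. Bright members change little with the constant, and the ribosomal scaling shifts them nearly alike, so they could hardly reach that size. Their signs are less settled. With equal ribosomal protein medians, 28 members and not 23 were below 0 for day 2 minus day 0. Cdk1, Ccnb2, Aurka, Kif11 and Cdca8 changed sign. Of 114 values for which another probe set or the mean over probe sets was read, 15 moved by more than the pooled SD. They were in Bub1, Bub3, Cenpe, Kif22, Ncaph, Nek2, Smc4 and Spc25. No paired analysis was possible because each day has 1 array.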
